A study of Mus musculus with 27 samples.

Results

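The 5 genes described here encode the machinery with which the proximal tubule takes up filtered protein: Lrp2 (megalin), Cubn (cubilin), Amn (amnionless), Lrpap1 (receptor-associated protein, RAP) and Dab2. They were chosen by symbol from the 19392 genes of a table of whole-kidney RNA-Seq, and all 5 were present and passed the filter on low values. The table covers 27 kidneys of C57BL/6 mice, 3 at each of 9 times of warm ischemia (0, 16, 18, 20, 22, 24, 26, 28 and 30 min). In the ischemic groups the right kidney was removed. The 0 min group is labelled sham. The paper lists it among the ischemia times of the same model, but does not say outright that its right kidney was removed. In every group the left kidney was taken 24 h after the operation. The left pedicle was clamped for the stated time in all groups but the 0 min group. No gene was altered in any group, and the age and sex of the mice are not given in the sources used here.

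Megalin is a very large receptor of the low density lipoprotein (LDL) receptor family on the apical membrane of the proximal tubule, and cubilin is a peripheral receptor that reaches this membrane bound to amnionless. Together they retrieve albumin, vitamin-binding proteins, hormones and other small proteins from the filtrate, and their loss leads to low molecular weight proteinuria. RAP is a chaperone of the endoplasmic reticulum that keeps newly made receptors of this family from binding ligands too early. Dab2 is a cytoplasmic adaptor that joins the tail of megalin to clathrin.

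The promoters of the 2 receptor genes and of Amn are shown because the receptors moved together over the ischemia times and Amn did not follow them. They are read 5′ to 3′ from the RefSeq promoter table (build GRCm38.p6), which held all 5 genes, and stop before the first annotated base of the gene. Lrp2 lies at chr2:69424340-69586065 on the minus strand and Cubn at chr2:13276338-13491813 on the minus strand. Amn lies at chr12:111271095-111276426 on the plus strand. The stretches are chr2:69586066-69586279 for Lrp2, chr2:13491877-13492126 for Cubn and chr12:111270846-111271094 for Amn, all upstream of the first exon. Capitals mark a GC box (GGGCGG, or CCGCCC on the other strand) in Lrp2 and Amn, and an E-box (CACGTG) in Amn. The stretch of Cubn held none of the motifs searched.
Lrp2: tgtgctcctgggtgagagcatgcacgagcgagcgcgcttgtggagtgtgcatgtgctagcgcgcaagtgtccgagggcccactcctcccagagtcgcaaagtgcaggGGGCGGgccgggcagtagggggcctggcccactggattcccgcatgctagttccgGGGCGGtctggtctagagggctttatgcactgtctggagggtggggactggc
Cubn: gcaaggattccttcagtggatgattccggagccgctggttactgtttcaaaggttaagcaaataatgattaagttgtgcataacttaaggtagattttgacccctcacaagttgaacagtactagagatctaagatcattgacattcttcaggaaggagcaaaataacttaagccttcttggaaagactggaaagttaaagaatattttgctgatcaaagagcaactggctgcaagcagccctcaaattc
Amn: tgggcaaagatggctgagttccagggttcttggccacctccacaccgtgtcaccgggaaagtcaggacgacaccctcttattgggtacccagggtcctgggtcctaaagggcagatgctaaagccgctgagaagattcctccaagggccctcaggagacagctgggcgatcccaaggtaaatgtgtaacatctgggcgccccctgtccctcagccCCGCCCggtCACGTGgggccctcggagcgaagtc

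The receptor promoters shared none of the motifs searched. The GC boxes of Lrp2 began at -143 and -88 from the RefSeq start, and that of Amn at -35, beside an E-box at -26. Of the genes whose promoters are not shown, Lrpap1 held 5 GC boxes and Dab2 none, and neither held an E-box. Of all 32851 promoters in the table, searched over the 250 bases before the start (a little more than the stretches of Lrp2 and Amn), 32.7% held a GC box on either strand and 6.02% an E-box. The stretch of Cubn was 39.6% G and C, against 65.9% in Lrp2 and 61.0% in Amn. The TATA box (TATAAA, 12.4% of promoters) and the HNF4-like site (CAAAGTCCA, 0.384%) were also searched on both strands and occurred in none of the stretches of the 5 genes. These matches are letters in a window, and no binding was measured.

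The other 2 genes are Lrpap1 (chr5:35091501-35105766, minus strand) and Dab2 (chr15:6299788-6440712, plus strand). The longest coding transcripts ran from 1701 nt in 12 exons (Amn) to 15460 nt in 79 exons (Lrp2). Genes on the opposite strand overlap Cubn (Gm13270) and Dab2 (Gm16311, Gm18888). Whether counting used strand is not given in the sources used here, so reads of these partners cannot be told apart from those of the 2 genes.

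All levels are FPKM (fragments scaled to transcript length and to the library's total), summing to between 512453 and 554036 per kidney. Reads per kidney are unknown, so precision was judged only from the spread between kidneys. The summed level of 6 markers of proximal tubule segments 1 and 2 lay between 2875 and 3204 FPKM at 0 min, with no marker at 0. In a whole kidney, fewer tubule cells and less RNA per cell cannot be told apart. Kidney 3 of 16 min stood apart from its group, with a summed level of 4 injured-tubule markers of 1231 FPKM. The other 2 kidneys of 16 min were at 8243 and 11091, and the 3 control kidneys at 781 to 1731.

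At 0 min, Lrpap1, Dab2 and Lrp2 had much the same level per length (means of 165, 164 and 161 FPKM), with overlapping kidneys. Amn (68.5) and Cubn (56.1) were lower, and their kidneys did not overlap. By 30 min the order had changed to Dab2 (132), Lrpap1 (50.5), Amn (46.0), Lrp2 (22.6) and Cubn (8.76). At 30 min, Lrpap1 and Amn were the only neighbours in this order whose kidneys overlapped. The plot of the level in each kidney shows a step in Lrp2, Cubn and Lrpap1 between 26 and 28 min, a rise of Amn before its fall, and little movement of Dab2.

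**Figure D1:**
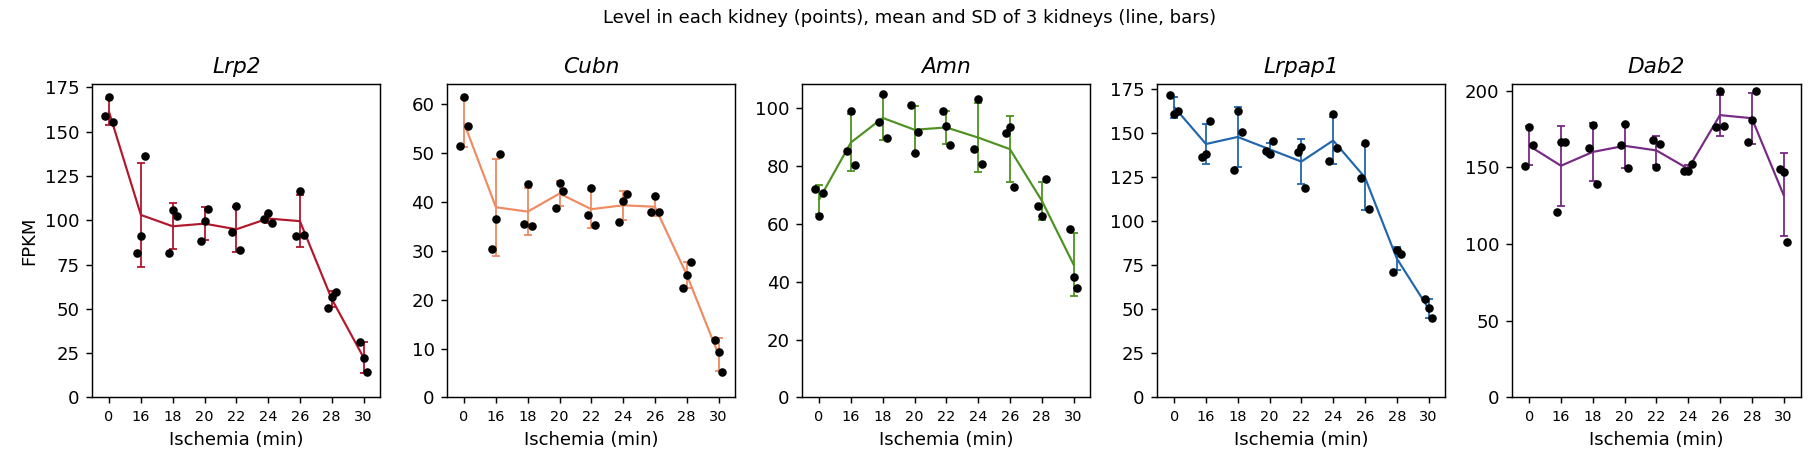
FPKM of the 5 genes (1 panel each, linear axis from 0) at the 9 ischemia times in min, drawn at equal steps although 16 min separate the first pair. Points are kidneys, the line joins the means and bars are the SD of 3 kidneys. Lrp2 sat between 155.56 and 169.35 at 0 min, between 81.68 and 136.54 from 16 to 26 min, and between 14.08 and 31.53 at 30 min.

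Megalin mRNA fell in 3 stages. Lrp2 was at 158.99, 169.35 and 155.56 FPKM in the control kidneys and at 81.72, 91.08 and 136.54 at 16 min. The kidneys of 26 min had 90.91, 116.26 and 91.42, those of 28 min 50.42, 56.56 and 59.68, and those of 30 min 31.53, 22.32 and 14.08. Every ischemic kidney was below every control kidney, and the groups of 26, 28 and 30 min did not overlap. The means of 16, 26, 28 and 30 min were 63.9%, 61.7%, 34.4% and 14% of the control mean.

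The test for these differences was limma on log2(FPKM + 1), with Benjamini-Hochberg adjustment over the 18188 genes tested, and log2 differences below are on that scale. At 16, 26, 28 and 30 min, Lrp2 differed from 0 min by -0.66, -0.70, -1.53 and -2.85 (SE 0.21 each), with adjusted p of 0.032, 0.015, 5.6e-06 and 1.3e-09. Under 8 alternatives of processing, the adjusted p of limma at 30 min was at most 0.0016. Lrp2 was also called at 18, 20, 22 and 24 min, at -0.70 to -0.78. It fell by 0.83 from 26 to 28 min (adjusted p = 0.0088) and by 1.32 from 28 to 30 min (adjusted p = 0.00076).

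Some of these calls rested on single kidneys. At 16 min the adjusted p was 0.057 to 0.15 without any 1 control kidney or without kidney 1 or 2 of 16 min. Without kidney 3 of 16 min, which stood apart, the difference was -0.89 (adjusted p = 0.0033). The call was also lost without kidney 1 of 18 min (0.053), kidney 1 of 20 min (0.074), kidney 1 or 3 of 26 min (0.059 and 0.056), and, at 20, 24 and 26 min, control kidney 2 (0.061, 0.057 and 0.052). The fall from 26 to 28 min had an adjusted p of 0.057 without kidney 2 of 26 min. With the 18 kidneys of 16 to 26 min pooled, a comparison added after the data were seen, Lrp2 was 0.71 below the 3 control kidneys without overlap. The exact two-sided permutation test gave p = 0.0015, the smallest it can give, and 0.0025 adjusted over the 5 genes.

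Cubilin followed the same course. Cubn was at 51.48, 61.37 and 55.47 FPKM in the control kidneys, 30.46, 36.53 and 49.83 after 16 min, and 37.83, 41.24 and 38.01 after 26 min. The kidneys of 28 min had 22.48, 25.04 and 27.72 and those of 30 min 11.83, 9.24 and 5.2. Again no ischemic kidney reached the control kidneys, and the last 3 groups were separate. The means were 69.4%, 69.6%, 44.7% and 15.6% of the control mean at 16, 26, 28 and 30 min.

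By limma, Cubn at 16, 26, 28 and 30 min differed from 0 min by -0.61, -0.59, -1.25 and -2.69 (SE 0.20 each), with adjusted p of 0.036, 0.029, 2.6e-05 and 1.1e-09. Under the 8 alternatives of processing, the adjusted p at 30 min was at most 0.0019. Cubn was also called at 18, 22 and 24 min. At 20 min the difference of -0.50 had an adjusted p of 0.073. It fell by 0.66 from 26 to 28 min (adjusted p = 0.023) and by 1.44 from 28 to 30 min (0.0002).

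Each call of Cubn from 16 to 26 min was lost without some single kidney. At 16 min the adjusted p was 0.052 to 0.18 without any 1 control kidney or without kidney 1 or 2 of 16 min, and without kidney 3 the difference was -0.81 (0.0049). Leaving out control kidney 2 gave 0.086, 0.10, 0.11 and 0.11 at 18, 22, 24 and 26 min, and control kidney 3 gave 0.052 and 0.053 at 24 and 26 min. Kidneys 1 and 3 of 18 min (0.075, 0.068), 22 min (0.067, 0.094) and 26 min (0.076, 0.076) and kidneys 1 and 2 of 24 min (0.091, 0.054) did the same. From 26 to 28 min it was kidney 2 of 26 min (0.086) and kidneys 1 and 2 of 28 min (0.085, 0.055). The scaling also mattered: after FPKM were rescaled to a constant sum, the adjusted p was 0.057, 0.061 and 0.066 at 16, 24 and 26 min (limma). Without quantile normalization it was 0.052 at 24 min, and with a pseudocount of 0.1 FPKM it was 0.05 and not called at 16 min. Pooled, the 18 kidneys of 16 to 26 min were 0.51 below the control kidneys without overlap (exact permutation p = 0.0015, adjusted 0.0025).

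Amnionless, the membrane anchor of cubilin, first rose and later fell. Amn was at 72.09, 62.87 and 70.61 FPKM in the control kidneys and at 85.15, 99.08 and 80.4 after 16 min. The kidneys of 26 min had 91.42, 93.48 and 72.84, those of 28 min 66.28, 62.68 and 75.45, and those of 30 min 58.36, 41.64 and 37.91. All 18 kidneys of 16 to 26 min were above the control kidneys, those of 28 min overlapped them and those of 30 min were below. The group means of 16 to 26 min lay between 85.9 and 96.7 FPKM.

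By limma, Amn was higher at 18 min (0.39 ± 0.13 SE, adjusted p = 0.030) and at 22 min (0.37, adjusted p = 0.038). At 16, 20, 24 and 26 min it was 0.31, 0.34, 0.27 and 0.25 above 0 min, with adjusted p of 0.061 to 0.15. Both calls were lost without single kidneys: at 18 min without control kidney 2 or 3 or kidney 1 or 2 of 18 min (0.053 to 0.12), and at 22 min without any of the 6 (0.053 to 0.14). Scaling mattered for Amn, which also passed at 16, 20, 24 and 26 min (adjusted p of 0.024 to 0.050) when FPKM were rescaled to a constant sum in place of quantile normalization. All 18 kidneys together were 0.40 above the 3 control kidneys (exact permutation p = 0.0015, adjusted 0.0025).

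At 28 min Amn was at -0.09 against 0 min (adjusted p = 0.60), with a 95% interval from -0.36 to 0.18. At 30 min it was lower by -0.62 (limma, adjusted p = 0.00044, at most 0.034 under the 8 alternatives of processing). From 26 to 28 min the difference was -0.35 (adjusted p = 0.068), and without kidney 3 of 26 min it was -0.45 (0.028). It fell by 0.52 from 28 to 30 min (0.012), which was not called without kidney 3 of 28 min (0.065) or kidney 2 or 3 of 30 min (0.051 and 0.093).

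The chaperone RAP was slightly lower from 16 to 26 min and much lower from 28 min on. Lrpap1 was at 171.95, 160.79 and 162.71 FPKM in the control kidneys, 136.7, 138.25 and 156.88 after 16 min and 124.58, 144.53 and 107.14 after 26 min. The kidneys of 28 min had 71.31, 83.96 and 81.73 and those of 30 min 55.93, 50.72 and 44.99. The kidneys of 28 and 30 min were below all others and separate from each other.

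By limma, Lrpap1 at 22, 26, 28 and 30 min differed from 0 min by -0.30, -0.37, -1.05 and -1.63 (SE 0.10 each), with adjusted p of 0.032, 0.0088, 9.8e-08 and 1.8e-10. Under the 8 alternatives of processing, the adjusted p at 30 min was at most 0.00026. At 16, 18, 20 and 24 min Lrpap1 differed by -0.19 to -0.22 and was not called. The call at 22 min was lost without any 1 control kidney or kidney 3 of 22 min (0.059 to 0.16), and that at 26 min without kidney 3 of 26 min (0.062). Without kidney 1 of 28 min the difference at 28 min was -0.98. It fell by 0.67 from 26 to 28 min (adjusted p = 0.00018) and by 0.58 from 28 to 30 min (0.0014). The 18 kidneys of 16 to 26 min were 0.25 below the control kidneys, with overlap (exact permutation p = 0.006, adjusted 0.0075).

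The adaptor Dab2 was not called against 0 min at any of the 8 times in limma, and none had an unadjusted p under 0.05 (lowest 0.094). It was at 150.86, 176.48 and 164.72 FPKM in the control kidneys, 121.08, 166.16 and 166.26 after 16 min and 176.22, 199.55 and 176.99 after 26 min. The kidneys of 28 min had 166.29, 180.91 and 199.6 and those of 30 min 149.02, 146.71 and 101.11. The control kidneys overlapped those of each time but 30 min, whose 3 kidneys were all below the lowest control kidney. By limma the differences from 0 min ranged from -0.21 (at 30 min, adjusted p = 0.18, 95% interval -0.48 to 0.06) to 0.22 (at 28 min, adjusted p = 0.16). Without quantile normalization, or after rescaling to a constant sum, the difference at 30 min was -0.33 with adjusted p of 0.047 and 0.050.

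From 28 to 30 min Dab2 fell by 0.43 (limma, adjusted p = 0.029). This call was lost without kidney 2 or 3 of 28 min (0.079 and 0.11) and without kidney 3 of 30 min, where the difference was -0.27 (0.22). The pooled kidneys of 16 to 26 min differed from the control kidneys by -0.03 (exact permutation p = 0.84).

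**Figure D2:**
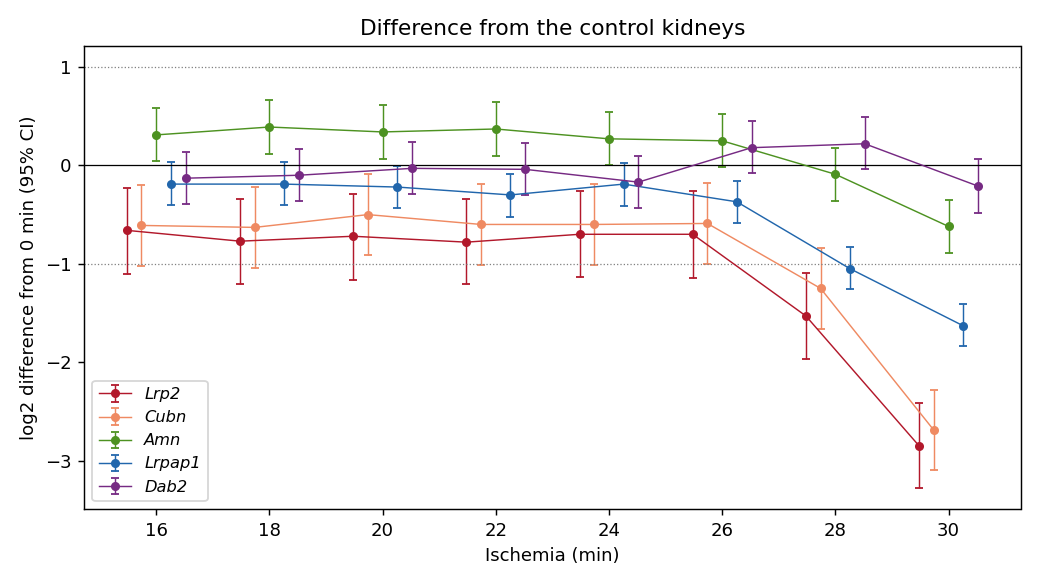
Log2 difference from the 0 min kidneys (vertical axis, with the 95% interval from limma) at 8 ischemia times in min, 1 colour per gene. Dotted lines mark 1 log2 unit. Lrp2, Cubn and Lrpap1 passed the lower line at 28 min (-1.53, -1.25 and -1.05), while Amn (-0.09) and Dab2 (0.22) were near 0.

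Counted over the 5 genes, a DEG had an absolute log2 difference above 1 and an adjusted p under 0.05. Lrp2, Cubn and Lrpap1 were DEGs, all lower, at 28 min (3 of 5, where 4.21% of all genes tested were lower DEGs) and at 30 min (3 of 5, 5.59%). From 16 to 26 min 0 of 5 were DEGs, where 2.25%, 3.06%, 2.51%, 3.29%, 3.12% and 3.77% of all genes, in order of time, were DEGs in either direction. At an adjusted p under 0.05 and any size, 2, 2, 1, 3, 2 and 3 of 5 were lower from 16 to 26 min, where 9.61%, 15.2%, 12.1%, 15.4%, 14.8% and 15.2% of all genes were lower. At 28 min 3 were lower (23.6%) and at 30 min 4 (25.4%). Amn alone was higher, at 18 min (12.6%) and 22 min (13.4%). All of these comparisons share the same 3 control kidneys. With kidney 1 of 28 min left out, 2 of 5 were DEGs at 28 min, since Lrpap1 no longer passed 1 log2 unit.

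No difference among the 6 times from 16 to 26 min was detected for these genes. Between neighbouring times 0 of 5 passed the adjusted threshold in limma, against 0.0% of all genes. Before adjustment 1 passed: Dab2 was 0.35 higher at 26 than at 24 min (limma, adjusted p = 0.82). The slope over these times was -0.0001 log2 units per min for Lrp2, with a 95% interval from -0.037 to 0.0369. For Cubn it was 0.0012, for Amn -0.0089, for Lrpap1 -0.0149 and for Dab2 0.0189. The slope was called for 0 of 5, against 0.011% of all genes, and no slope had an unadjusted p under 0.05 (lowest 0.094, Dab2). The highest group mean was 1.09 times the lowest for Lrp2, 1.1 for Cubn, 1.13 for Amn, 1.18 for Lrpap1 and 1.24 for Dab2.

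The steps after 26 min were the only ones between neighbouring ischemic groups with calls. From 26 to 28 min, Lrp2, Cubn and Lrpap1 were lower (3 of 5, against 8.52% of all genes) and none was a DEG (1.06% lower DEGs). From 28 to 30 min all 5 were lower (against 6.77%), and Lrp2 and Cubn were DEGs (2 of 5, against 0.649%). These 2 comparisons share the kidneys of 28 min. Fitted on the 6 kidneys of 28 and 30 min alone, none of the 5 passed in the second step (adjusted p of 0.079 to 0.19), although the differences were the same size. In that fit 0 of all 18188 genes tested passed. Likewise, on the 6 kidneys of 0 and 16 min alone, Lrp2 and Cubn had adjusted p of 0.17 and 0.19. Of all 18188 genes, only 6 were higher and 10 lower in that fit.

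Ratios within a kidney show which of the genes moved apart, and need no scaling between kidneys. Log2 ratios of the 10 pairs were compared between the 6 kidneys of 28 and 30 min and the 18 of 16 to 26 min by exact two-sided permutation tests, adjusted over the 10. Lrp2 fell against Dab2 by 1.41, and Cubn by 1.30, both without overlap (adjusted p = 3e-05, from the smallest p possible, 1.5e-05). Against Amn, Lrp2 fell by 0.77 (adjusted p = 7.4e-05) and Cubn by 0.66 (0.00085), with some overlap. Amn fell against Dab2 by 0.64, and rose against Lrpap1 by 0.43, and Dab2 rose against Lrpap1 by 1.07 (each 3e-05, no overlap).

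Lrp2 fell against Lrpap1 by 0.35 (exact permutation, adjusted p = 0.024). The difference of Cubn against Lrpap1 was -0.23 (0.14). The kidneys of 28 and 30 min, pooled here, did not lie together in these 2 ratios. The mean log2 ratio of Lrp2 to Lrpap1 was -0.50 from 16 to 26 min, -0.50 at 28 min and -1.19 at 30 min. That of Cubn to Lrpap1 was -1.81, -1.62 and -2.46, and the 3 kidneys of 30 min (-2.89 to -2.15) were below all 18 of 16 to 26 min (-2.13 to -1.47). The kidneys of 30 min were not tested alone. Lrp2 against Cubn changed by only -0.11 (0.033), the smallest of the 10. The call for Lrp2 and Cubn was lost at a pseudocount of 0.1 FPKM (-0.07, adjusted p = 0.19), and both calls of Lrp2 in this paragraph were lost without replicate 2 or 3 of every time (adjusted p of 0.19 and 0.13 against Cubn, and 0.14 and 0.12 against Lrpap1).

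**Figure D3:**
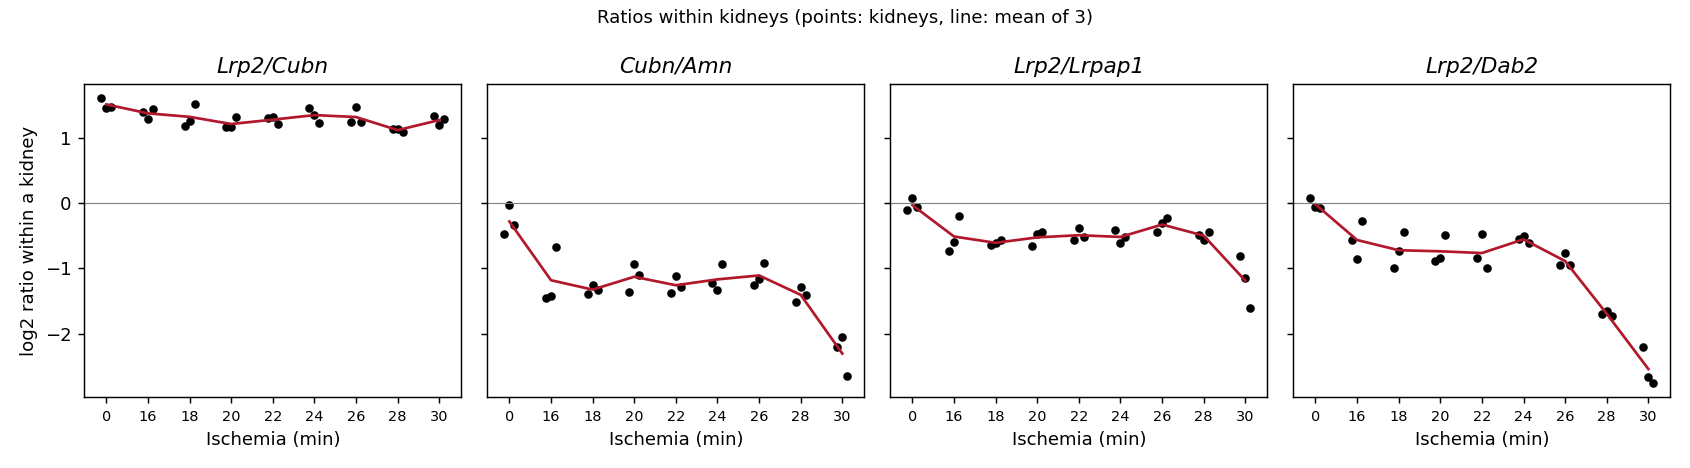
Log2 ratio of FPKM + 1 within each kidney (vertical axis, shared) for 4 pairs by ischemia time in min. Points are kidneys and lines join the means of 3. The mean of Cubn to Amn went from -0.28 at 0 min to -1.11 at 26 min and -2.31 at 30 min, while that of Lrp2 to Cubn stayed between 1.12 and 1.51.

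The pairs had already moved apart by 16 to 26 min. In the comparison of those 18 kidneys with the 3 control kidneys, added after the data were seen, Lrp2 fell against Amn by 1.11 and Cubn by 0.91, both without overlap (exact permutation, p = 0.0015, adjusted 0.0032 over 15 ratios). Cubn transcripts went from 0.821 of Amn per length at 0 min to 0.463 at 26 min and 0.202 at 30 min. Lrp2 also fell against Dab2 by 0.68 and against Lrpap1 by 0.46, without overlap. Its change against Cubn was -0.20 (adjusted p = 0.021), with overlap. Dab2 against Lrpap1 differed by 0.22 (0.14).

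The summed markers of the proximal tubule were lower at 28 and 30 min, as were Lrp2, Cubn and Lrpap1, whereas Amn and Dab2 were not called at 28 min. Relative to the control mean, the 6 segment 1 and 2 markers summed to 88.7% to 97.4% from 16 to 26 min, and to 40.4% and 23.7% at 28 and 30 min. At 26 min 0 of the 6 passed an adjusted p of 0.05 against 0 min in limma (2 passed an unadjusted 0.05, 1 in each direction). There 15.2% of all genes were lower and 14.9% higher. At 28 min 3 of the 6 were lower (23.6% of all genes) and at 30 min 5 (25.4%). Those not called at 28 min were Slc5a2 (0.06), Slc13a3 (-0.28) and Slc5a12 (-0.49). Slc5a2 was not called at 30 min either (-0.33). The 5 markers of segment 3 summed to 59.3%, 28.3%, 7.14% and 4.98% after 16, 26, 28 and 30 min. By limma 1 of the 5 was lower at 16 min (9.61% of all genes), 4 at 26 min (15.2%) and 5 at 30 min (25.4%). Slc5a1 differed from the rest: it was higher at 26 min (0.43, adjusted p = 0.043). At 30 min it was at -0.77, and the other 4 were at -3.94 to -5.74. The 4 injured-tubule markers summed to 563% at 16 min and 1587% at 30 min. By limma 3 of the 4 were higher at 16 min (1715 of 18188 genes tested) and at 30 min (26.9%). Vcam1 was not called at either time. No marker in these 3 lists was at 0 in all kidneys of a time.

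Measured against the mean log2 level of the 6 segment 1 and 2 markers, Lrp2 and Amn changed in both steps compared. Cubn was called only in the first step, Dab2 only in the second and Lrpap1 in neither. The 6 markers themselves differed, from -1.88 (Slc34a1) to 0.06 (Slc5a2) at 28 against 0 min by limma. From 0 min to 16 to 26 min, Lrp2 fell by 0.63 against the markers (exact permutation, adjusted p = 0.0032) and Cubn by 0.43 (0.0056). Amn rose by 0.48 against them (0.013), while Lrpap1 (-0.17, 0.24) and Dab2 (0.05, 0.71) were not called. From 16 to 26 min to 28 and 30 min, a family of 5 tests, Dab2 rose by 1.07 against the markers (7.4e-05) and Amn by 0.43 (0.0019). Lrp2 fell by 0.34 (0.0082), Cubn differed by -0.23 (0.11) and Lrpap1 by 0.01 (0.86). These ratios were also added after the data were seen.

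Other cell types were measured in the same kidneys. Markers of macrophages and leukocytes summed to 226% of the control mean at 16 min and 202% at 30 min. By limma at 30 min, 2 of these 5 markers were higher (Cd68 by 2.63 and Lyz2 by 1.2) and 2 lower (Csf1r at -1.23 and Ptprc at -0.25), with a median of -0.25. Of all genes tested, 26.9% were higher and 25.4% lower at 30 min, and these shares stand beside each count in this paragraph. Those of fibroblasts and mural cells summed to 205% and 346%, with 3 of 5 higher at 30 min and 1 lower (Dcn at -1.63). Those of neutrophils were at 80.4% and 322%, with 2 of 3 higher. Endothelial markers were at 169% (3 of 4 higher) and podocyte markers at 189% (2 of 4 higher) at 30 min. The markers of the loop, distal tubule and collecting duct (4 of 5 lower) were at 68.8%. Kidney 3 of 30 min carried some of these means, since its loop to collecting duct markers summed to 2850 FPKM and those of the other 2 kidneys to 795 and 801, against 2057 to 2218 in the control kidneys. Without it, a choice made after the data were seen, the mean was 37.0%, and that of the fibroblast and mural markers was 222%. The part of these cell types in the levels of the 5 genes was not tested.

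**Figure D4:**
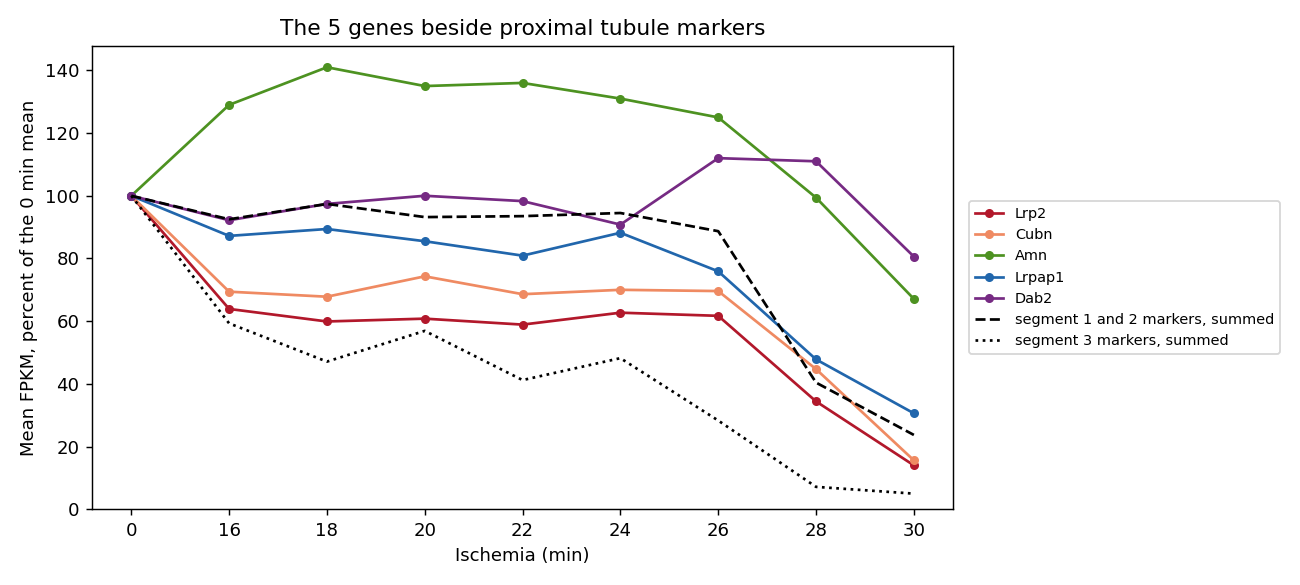
Mean FPKM of the 5 genes (coloured) and summed FPKM of proximal tubule markers (black, dashed for segments 1 and 2, dotted for segment 3), as percent of the 0 min mean, by ischemia time in min; no error is drawn. From 16 to 26 min the segment 1 and 2 markers lay at 88.7% to 97.4%, above Lrp2 (58.9% to 63.9%) and below Amn (125% to 141%).

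The genes were also compared by how they varied together, as a description over kidneys that share their groups and scaling. Over the 27 kidneys, Pearson's r of Lrp2 with Cubn was 0.99, with Lrpap1 0.95, with Amn 0.75 and with Dab2 0.27. For deviations of each kidney from its own time's mean, r was 0.92 for Lrp2 with Cubn, 0.74 with Lrpap1, 0.41 with Amn and 0.63 with Dab2. Dab2 with Cubn went from 0.33 over all kidneys to 0.78 for the deviations. This relation did not hold within every time. At 30 min the 3 kidneys had the same order in Lrp2 (31.53, 22.32 and 14.08 FPKM) and in Dab2 (149.02, 146.71 and 101.11). At 22 min the kidney highest in Lrp2 (108.3) and Cubn (42.82) was the lowest in Dab2 (150.48). Kidney 3 of 16 min, which stood apart, was kept in these values. So was kidney 3 of 30 min, the lowest of its time in all 5 genes and the one with the high loop to collecting duct sum. How far r rests on these kidneys was not tested, and r was not computed for single times.

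Of the 12346 genes with a mean of at least 1 FPKM, Cubn was the gene most like Lrp2 and Lrp2 the gene most like Cubn (Pearson's r = 0.9895 over 27 kidneys). After Cubn, those most like Lrp2 were Cyp2j5, Ankrd13c, Slc3a1 (a subunit of the cystine transporter) and Gpc4 (0.9787 to 0.9819). After Lrp2, those most like Cubn were Pgap6, Slc3a1, Slc5a9 (a sugar transporter) and Fggy (0.9789 to 0.9794). Lrpap1 was most like Pecr, a peroxisomal enoyl-CoA reductase (0.9943), then Mgat3, Slc6a20b, Galnt11 and Acss2. Amn was most like Pycrl (0.9408), Ciao2a, Cela1, Prss8 and Ndufab1. Dab2 had no gene as close, with Npl at 0.8936, followed by Epb41l3, Gpt2, Cdc123 and Lipa. Without quantile normalization, 2 of these 5 genes of Dab2 remained among its first 5.

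The rest of the pathway was followed in 82 genes of 8 lists, of which 81 were tested (Scgb1a1 did not pass the filter). At 30 min against 0 min, 31 were higher (26.9% of all genes tested) and 24 lower (25.4%), and 9 were higher DEGs (5.14%) and 4 lower DEGs (5.59%). The median difference over these genes was 0.02, beside 0.001 over all genes.

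Most genes of the clathrin coat and its adaptors rose. Of 16 genes, 12 were higher at 30 min (26.9% of all genes), by 0.21 to 1.04, and 2 were lower (25.4%), with a median of 0.36. Gipc1, an adaptor that binds the tail of megalin, rose by 1.04 ± 0.08 (SE; limma, adjusted p = 1.9e-09), from 35.5 to 75.4 FPKM. The 2 lower genes, named after their values were seen, were Myo6 (-0.71), the motor of early endocytic vesicles, and the endosomal adaptor Appl2 (-0.63). At 26 min 9 of the 16 were already higher and 1 lower (14.9% and 15.2% of all genes).

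Genes of endosomes and lysosomes were called in both directions at 30 min, where 26.9% of all genes were higher and 25.4% lower. Of 11 sorting and recycling genes, 3 were higher and 4 lower, a share near that of all genes. The only DEG among them was Pik3c3, the lipid kinase of early endosomes (1.61, adjusted p = 1.7e-09), and Fcgrt, the recycling receptor of albumin and IgG, fell by 0.69 (7e-06). Of 9 acidification genes, 3 were higher and 2 lower, also near it. Atp6v0a1, a subunit of the proton pump, rose by 1.25 (3.6e-11). The 2 genes of hereditary low molecular weight proteinuria on that list were at 0.09 (Clcn5, adjusted p = 0.55, 15.9 and 18.4 FPKM at 0 and 30 min) and 0.39 (Ocrl, 5.4e-05). Of 6 lysosomal genes, 3 were higher and 1 lower, and the protease Ctsd rose by 1.5 (7.4e-07), from 328 to 1034 FPKM.

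Of 16 ligand and cargo genes tested, 4 were higher (26.9% of all genes) and 6 lower (25.4%) at 30 min, with a median of -0.06. Lcn2, a siderophore-binding protein taken up by megalin and made by injured tubules, rose by 6.30 (limma, adjusted p = 1e-06). Its kidneys lay at 9.39 to 63.62 FPKM at 0 min and at 1212.59 to 3921.19 at 30 min. Clu (clusterin) rose by 3.0 (3.6e-06). The folate receptor Folr1 fell by 1.39 (3.8e-09), from 297 to 109 FPKM, and Tcn2, the vitamin B12 carrier transcobalamin, by 1.26 (1.4e-07), from 969 to 399 FPKM.

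B2m, a small filtered protein and the light chain of class I molecules, was also a lower DEG. It was at 1332.25 to 2127.4 FPKM in the control kidneys, and its means at 16, 26, 28 and 30 min were 302, 313, 300 and 318. The 3 control kidneys were above all kidneys of these 4 times, which overlapped each other. It fell by 2.74 (1.3e-08) at 16 min and 2.55 (5.8e-10) at 30 min. Every difference from 0 min rests on the same 3 control kidneys, and whether they differ from the others in another way was not tested. These mRNA levels are those of the kidney itself, and filtered protein was not measured.

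Of 6 genes for steps of vitamin D and B12 handling after uptake, 2 were higher (26.9% of all genes) and 3 lower (25.4%) at 30 min. Cyp27b1, which makes active vitamin D, was at 1.6 to 2.59 FPKM in the control kidneys, at 1.28, 3.82 and 59.52 after 28 min and at 55.16 to 86.41 after 30 min. It rose by 4.55 at 30 min (limma, adjusted p = 1.8e-05), and 1 kidney of 28 min had reached the range of 30 min. Cyp24a1, which inactivates vitamin D, was higher by 3.17 at 28 min (2e-06) and by 1.72 at 30 min (0.001), and fell between these times by 1.45 (0.02). The vitamin D receptor Vdr fell by 1.30 at 30 min (9.1e-06), from 73.2 to 30.2 FPKM.

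Of 11 other members of the LDL receptor family, 4 were higher (26.9% of all genes) and 2 lower (25.4%) at 30 min, with a median of -0.10. Lrp8 rose by 1.54 (limma, adjusted p = 9.6e-07), from a mean of 0.357 to 3.16 FPKM, and Lrp1 by 0.88 (0.00021). The lower genes, named after their values were seen, were Lrp4 (-0.90) and Lrp6 (-0.80).

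Of 6 transcription factors of the proximal tubule, 4 were lower (25.4% of all genes) at 30 min and 0 higher (26.9%), with a median of -0.49, and none was a DEG. Hnf4a, which maintains the mature proximal tubule, was at -0.61 (limma, adjusted p = 1.9e-05) at 30 min. Its mean was 87.2% of the control mean at 28 min and 60.1% at 30 min. Between 26 and 28 min, 0 of the 6 passed in limma, adjusted or not. After adjustment 8.52% of all genes were lower, so 0 of 6 is near that share. Before adjustment 5635 of 18188 genes passed 0.05 in either direction.

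**Figure D5:**
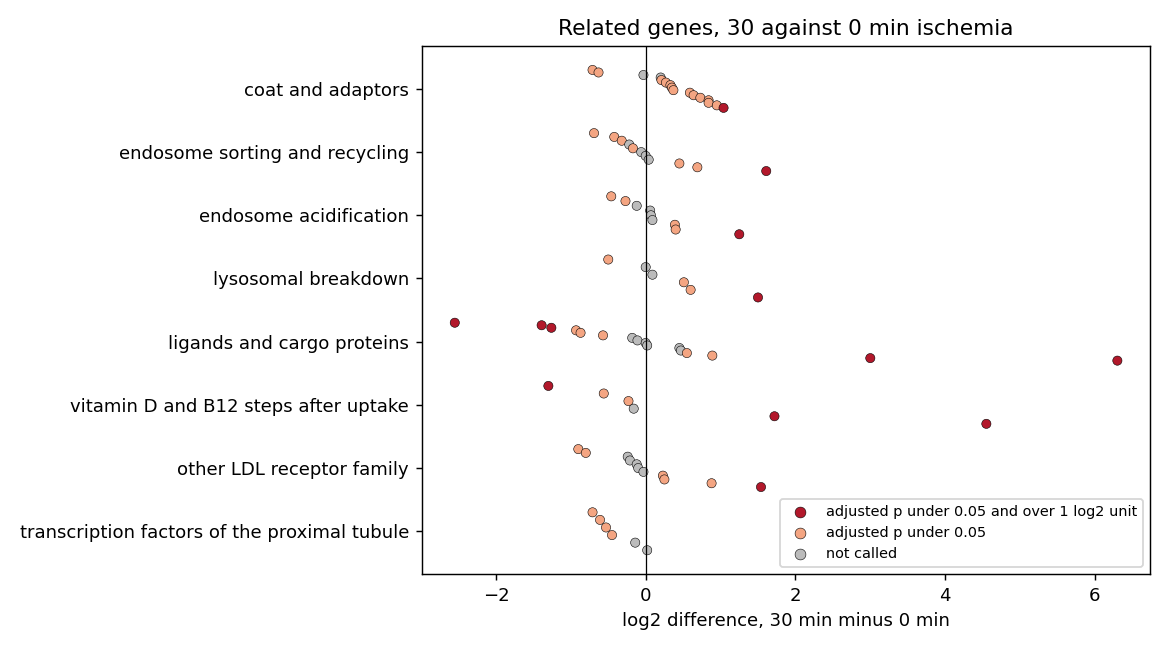
Log2 difference at 30 min against 0 min (horizontal axis) of the 81 related genes tested, 1 row of points per list. Colour gives the call: dark red for DEGs, light for an adjusted p under 0.05 only, grey for neither. Points of the coat and adaptor list sit mostly right of 0 (12 of 16 higher), and called transcription factors sit left (4 of 6 lower).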

How the data were processed

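Left kidneys of 27 mice were profiled by RNA-Seq (DNBSEQ-G400), 3 mice per ischemia time. FPKM were made by the authors for each gene symbol and deposited with 2 decimals, and the paper calls the unit RPKM. The authors' processing notes name Bowtie2, RSEM and DESeq2 and build GRCm38.p6. Read counts were not used here, and depth per kidney is unknown: of the low values in 56 genes, 52.2% lay within 0.15 of a whole multiple, so reads were not recovered.

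A pseudocount of 1 FPKM was added before log2 transformation, and the values were quantile normalized between kidneys and fitted in limma 3.58.1 (R 4.3.3) with 1 mean per time, over 18188 genes above 0 FPKM in at least 3 kidneys. Ratios were taken on log2(FPKM + 1) without normalization and tested by exact permutation (scipy 1.17.1). On simulated data for 30 against 0 min, 198 of 200 planted genes were recovered and 0 of 17988 others called. The planted shifts were larger than every difference of the 5 genes from 0 min at 16 to 26 min. They were placed only in genes above a low mean level, with noise drawn separately for each gene. The recovery of smaller differences between groups was not simulated. Gene positions are from GENCODE M21 (GRCm38). The members and lists were chosen with earlier results of these data known. The genes named were the 5 members, the 5 most like each, the DEGs of each list at 30 against 0 min (at most 4 in each direction) and genes that define a list's role. A few genes of that last kind are not reported here. The alternatives were another pseudocount, no quantile normalization, a constant sum, other filters, a trended robust fit, a replicate block, only the groups compared and each kidney left out. The replicates are labelled as separate samples, without a stated batch. Comparisons of pooled kidneys of 16 to 26 min with 0 min, and with markers, were added after the data were seen. No other series' columns were present.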

Additional observations from a re-analysis of the deposited data

How the results depend on the processing

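The counts of DEGs among the 5 genes were the same under every alternative run but 2. Fitted on the 6 kidneys of 28 and 30 min alone, 0 in place of 2 were DEGs in that step (over all genes, 0 in place of 191). Without kidney 1 of 28 min, 2 in place of 3 were DEGs at 28 against 0 min. On the 6 kidneys of 0 and 16 min alone, 0 in place of 6 related genes were DEGs (over all genes, 8 in place of 410). For related genes at 26 against 0 min, 5 DEGs became 9 at a pseudocount of 0.1 FPKM, and 8 without quantile normalization and 8 after rescaling to a constant sum. Over all genes, 686 DEGs became 1318, 750 and 951 in the same order. At 28 against 26 min, 1 became 3 at a pseudocount of 0.1, 2 after rescaling, and 1 to 2 with single kidneys left out (2 without kidney 3 of 26 min). Over all genes, 272 became 515 at a pseudocount of 0.1 and 342 after rescaling. The change of Lrp2 against Cubn was -0.07 at a pseudocount of 0.1, and -0.14 to -0.10 with a replicate number left out. That of Lrp2 against Lrpap1 was -0.49 to -0.21. The list of genes most like Dab2 kept 2 of 5 without quantile normalization. The cause was not tested in any of these cases.

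Differences of Dab2 near 0 changed sign without being called. At 20 against 0 min (-0.03) it was 0.0 without quantile normalization and -0.09 to 0.03 with single kidneys left out (0.02 and 0.03 without control kidney 2 and kidney 3 of 20 min). At 16 min (-0.13) it was -0.20 to 0.02 (0.02 without kidney 1), and at 22 min (-0.04) -0.08 to 0.01 (0.01 without control kidney 2 or kidney 2). At 28 against 26 min (0.04) it was -0.02 without quantile normalization, -0.06 after rescaling, and -0.01 to 0.11 with single kidneys left out (-0.01 and -0.0 without kidney 1 of 26 min and kidney 3 of 28 min). Without kidney 3 of 16 min, Lrpap1 against the segment 1 and 2 markers changed from 0.01 to -0.01.

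The replicate numbers did not pair the kidneys: for the 108 pairs with the same number the correlation of deviations ran from -0.42 to 0.48 (median -0.01), and 10 of 27 kidneys correlated best with their own number. With the replicate number as a block, 3 of 5 genes were DEGs at 28 min and 3 at 30 min, 2 from 28 to 30 min, and 13 related genes at 30 min, as without it. The number of 5 genes called at 30 min was 4 with the block. Depth is unknown, so the limit it sets on low genes such as Lrp8 cannot be given.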
